A study of Mus musculus with 12 samples.

Results

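The 10 genes described here mark or carry the WNT programme of pericentral hepatocytes, and they were followed through an H3K27ac experiment on regenerating mouse liver with and without Cox10. They are Ctnnb1, Lgr5, Rnf43, Znrf3, Axin2, Tbx3, Glul, Oat, Lect2 and Rgn. Their regions were taken by name: every region in the deposited table whose gene name is one of the 10, after repeated regions were dropped. This gave 42 of 36387 regions, and every 1 of the 10 was among the 11240 gene names listed. They held a median of 4 regions each, against 2 over all genes. The rule used no measured value, though the 10 genes were chosen with earlier results of these data known. H3K27ac is acetylation of histone H3 at lysine 27, a mark of active promoters and enhancers, read here by chromatin immunoprecipitation and sequencing.

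Libraries came from regenerating livers labelled Cox10-/- and wild-type, 3 H3K27ac libraries of each. Per the labels' protocols, all mice carried a floxed Cox10 allele and had received 1 retro-orbital dose of an AAV8 vector carrying either GFP or the Cre recombinase. After 4 weeks 70% of the liver was removed, and the regrowing rest was taken on day 2. Cox10 acts in the synthesis of heme A, the cofactor of cytochrome c oxidase. The labels give no age, sex or strain, name neither the promoter of Cre nor the vector of each animal, and do not say that replicates are separate animals, so p-values measure the spread between libraries, which may be technical. The 6 input libraries were not used here.

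In the liver lobule, WNT ligands and R-spondins from endothelial cells of the central vein keep beta-catenin active in the hepatocytes around that vein. Beta-catenin then joins TCF factors at the DNA and switches on genes of the pericentral zone, among them glutamine synthetase (Glul). Lgr5 binds R-spondins, Rnf43 and Znrf3 remove WNT receptors from the cell surface, and Axin2 helps degrade beta-catenin, so 3 of these 4 genes are brakes that the pathway itself induces.

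The regions held 3282878 to 3385453 reads in the Cox10-/- libraries and 3897454 to 4187377 in the wild-type libraries, and the authors had divided them by 1 size factor per library. Values below are these normalised reads per region. On that deposited scale the whole table shifted downward: the median region was 2.06-fold lower in Cox10-/- (log2 -1.04). A centred scale, on which each library is set to its own median region (a shift of -1.05), is therefore given beside it. There a positive value means a shallower fall than that of the median region, or a rise. Cox10 itself held 1 region, in intron 5 of 6, with 60.3, 46.0 and 65.9 normalised reads in the Cox10-/- libraries, against 14.6, 17.8 and 12.8 in the wild-type libraries. That region was 3.62-fold higher (log2 1.86, SE 0.24, limma adjusted p = 2.0e-12), and it does not check the deletion, since the floxed exon is not named in the labels. All 8 hepatocyte markers examined had a promoter region. In bulk liver, fewer cells of a type and less acetylation per cell cannot be told apart.

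Promoter windows from RefSeq (build GRCm38.p6, the same primary assembly as the authors' mm10) were available for 6 of the 10 genes, in 8 windows, each running from 250 bases before a gene start to 50 after it. The windows of 4 genes are shown because they differ in base composition and in how acetylation around them behaved. They are Glul (chr1:153899679-153899978, plus strand), Axin2 (chr11:108920099-108920398, plus strand), Rnf43 (chr11:87662837-87663136, plus strand) and Lect2 (chr13:56548489-56548788, minus strand), written 5′ to 3′. Capitals mark CG dinucleotides and, in Lect2 alone, the motif ATCAAAG, the core to which TCF factors bind.
Glul: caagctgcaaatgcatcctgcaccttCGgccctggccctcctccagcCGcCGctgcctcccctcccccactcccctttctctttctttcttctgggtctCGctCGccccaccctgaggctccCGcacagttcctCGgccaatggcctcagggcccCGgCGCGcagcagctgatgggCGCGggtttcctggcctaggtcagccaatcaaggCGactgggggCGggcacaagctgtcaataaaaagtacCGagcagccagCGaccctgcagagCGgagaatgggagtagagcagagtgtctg
Axin2: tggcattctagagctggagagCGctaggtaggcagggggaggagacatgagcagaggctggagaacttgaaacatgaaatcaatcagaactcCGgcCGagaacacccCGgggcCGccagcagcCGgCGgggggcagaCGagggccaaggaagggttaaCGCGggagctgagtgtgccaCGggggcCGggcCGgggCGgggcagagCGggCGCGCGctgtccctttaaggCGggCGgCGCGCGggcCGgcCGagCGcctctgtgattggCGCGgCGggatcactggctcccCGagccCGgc
Rnf43: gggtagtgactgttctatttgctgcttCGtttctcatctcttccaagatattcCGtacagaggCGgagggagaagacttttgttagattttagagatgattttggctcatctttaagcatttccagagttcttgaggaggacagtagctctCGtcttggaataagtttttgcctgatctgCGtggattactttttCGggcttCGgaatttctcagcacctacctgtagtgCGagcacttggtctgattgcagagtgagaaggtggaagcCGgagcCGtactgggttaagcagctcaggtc
Lect2: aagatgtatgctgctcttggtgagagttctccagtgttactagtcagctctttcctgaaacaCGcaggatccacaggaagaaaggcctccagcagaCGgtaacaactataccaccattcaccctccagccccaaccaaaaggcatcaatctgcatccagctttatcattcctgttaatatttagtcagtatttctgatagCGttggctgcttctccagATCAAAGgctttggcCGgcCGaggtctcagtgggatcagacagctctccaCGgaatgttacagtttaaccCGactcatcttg

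The Axin2 window held 31 CG dinucleotides, 0.886 of the number that its C and G content gives. The Glul window held 17 (ratio 0.559), the Rnf43 window 10 (ratio 0.634) and the Lect2 window 7 (ratio 0.413). CTTTGAT and its reverse complement ATCAAAG were searched on both strands, as were CTTTGAA and TTCAAAG, which share no full match with the first pair. ATCAAAG stood in the Lect2 window, 32 bases before the start on which that window is built, and in none of the other 7. Distances of Lect2 regions count from another start, at base 56548559. Of all 32851 windows 3.73% held the first pair, and 5.14% held the second, which no window of these genes held. The Lect2 match lay between 2 acetylated regions, 92 bases above the lower-numbered one and 133 bases below the other, and overlapped neither. Over all genes with a window and a promoter region, those with a ratio at or above 0.6 had a median log2 fold change of -0.80 (5594 genes), against -0.96 for those below it (1875 genes). Of the 8 windows, 3 overlapped a region of the table. A match is a string of letters and shows no binding.

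The question of the comparison was where H3K27ac differed in regenerating liver that lacks Cox10. Acetylation was lower in Cox10-/- at 40 of the 42 regions and higher at 1 (limma, Benjamini-Hochberg adjusted p under 0.05 over all regions). The background was high: 87.2% of all regions were lower and 4.46% higher. The median of the 42 was 2.81-fold lower (log2 -1.49, against -1.04 over all regions). On the centred scale 22 were lower and 6 higher, against 32.4% and 33.6% of all regions. By the authors' deposited table, 39 of the 42 were lower and 1 higher, against 84.8% lower over all regions. The recovered reads were also scaled so that most regions do not change. Then 23 of the 42 were lower and 6 higher (edgeR TMM), or 18 and 4 (DESeq2 median-of-ratios). The share of all regions called under these scalings is not given here, so these counts have no background. Values at Glul, all 4 Ctnnb1 regions, the Axin2 promoter and 1 region each of Lgr5, Oat and Znrf3 turned positive under both. The libraries of the genotypes did not overlap at 41 of the 42 regions, as at 90.9% of all regions. With each of the 6 libraries left out in turn, 40 of 40 lower calls on the deposited scale and 16 of 22 on the centred scale held every time.

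The 42 regions fell into 4 classes of the deposited annotation. Within 1 kb of a start site, 19 of 20 regions were lower (92.3% of all such regions), with a median of log2 -1.27 against -0.87 over all such regions. On the centred scale 9 of these 20 were lower and 3 higher, against 18.9% and 42.2%. At 1 to 3 kb, 11 of 11 regions were lower (86.6%), and the median of -1.34 equalled that of all such regions to 2 decimals. On the centred scale 5 were lower and 1 higher, against 45.4% and 22.3%. In introns, 8 of 9 were lower (81.5%) and 1 was higher (8.06%), with a median of -1.52 against -1.28, and on the centred scale 6 were lower and 2 higher, against 42.1% and 27.7%. Both distal intergenic regions, which carry the name of Lect2, were lower (83.2%), on the centred scale too (41.9%). Outside promoters, the name on a region is that of a nearby gene and not of a shown target.

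**Figure D1:**
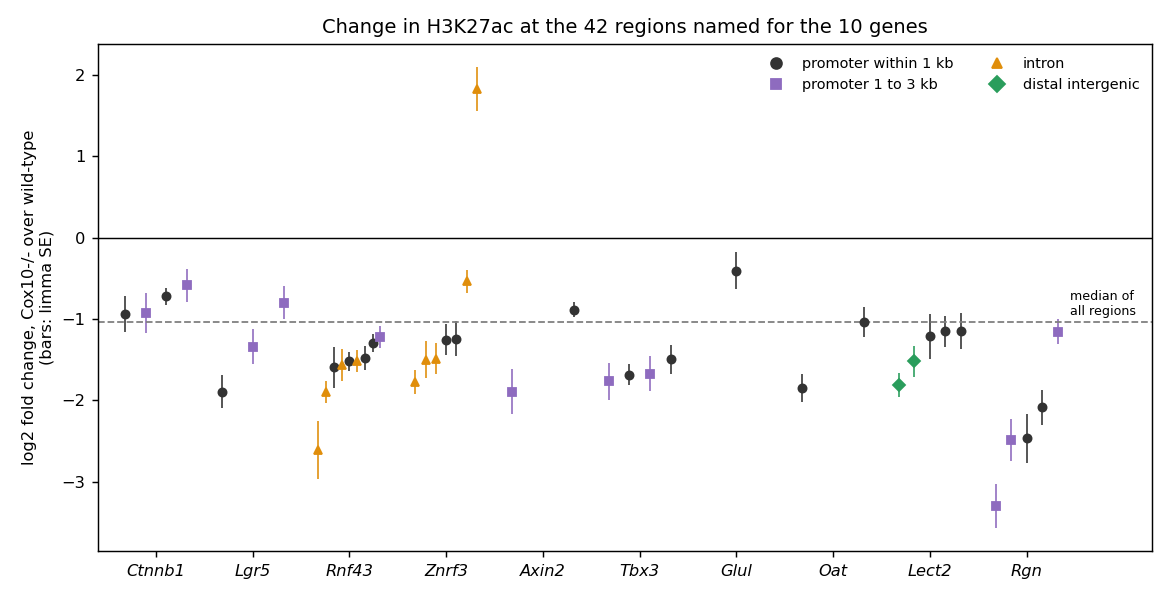
Log2 fold change (vertical axis, Cox10-/- over wild-type, deposited scale, bars are the limma SE) of each of the 42 regions, by gene and by annotation class, with the median of all regions dashed. The regions of Rgn reach furthest down, those of Ctnnb1 and Glul lie above the dashed line, and 1 intron region of Znrf3 lies above 0.

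At the strongest promoter region of each gene, the one within 1 kb of a start with the highest mean level, 9 of 10 genes were lower. Of all 9663 genes with a promoter region 93.8% were, and 0.807% were higher. On the centred scale Rgn, Lgr5, Oat, Tbx3 and Rnf43 were lower and Glul, Ctnnb1 and Axin2 higher, while Lect2 and Znrf3 were not called. The background there was 15.0% lower and 49.5% higher, with a median of 0.24, against -0.22 for the 10 genes. Levels were compared between genes per kb of region. In Cox10-/- the order, in normalised reads per kb (SD, n = 3), was Ctnnb1 (172 ± 18.1), Axin2 (137 ± 18.8), Znrf3 (121 ± 6.48), Glul (121 ± 9.96), Lect2 (119 ± 21.9), Rnf43 (99.0 ± 2.58), Tbx3 (74.0 ± 9.94), Oat (56.8 ± 12.8), Lgr5 (50.3 ± 7.59) and Rgn (48.8 ± 10.4). Libraries of neighbours in that order overlapped except between Ctnnb1 and Axin2 and between Rnf43 and Tbx3. In wild-type the levels per kb ran from 297 ± 54.6 at Znrf3 to 162 ± 20.2 at Glul, and every pair of neighbours overlapped. The Glul region ranked here lies 1809 bases into the gene. The broad region just after the Glul start carries the name Teddm2 and was not ranked. That region had 236 ± 24.1 normalised reads per kb in Cox10-/- and 304 ± 9.37 in wild-type. It was called lower on the deposited scale and higher on the centred one.

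**Figure D2:**
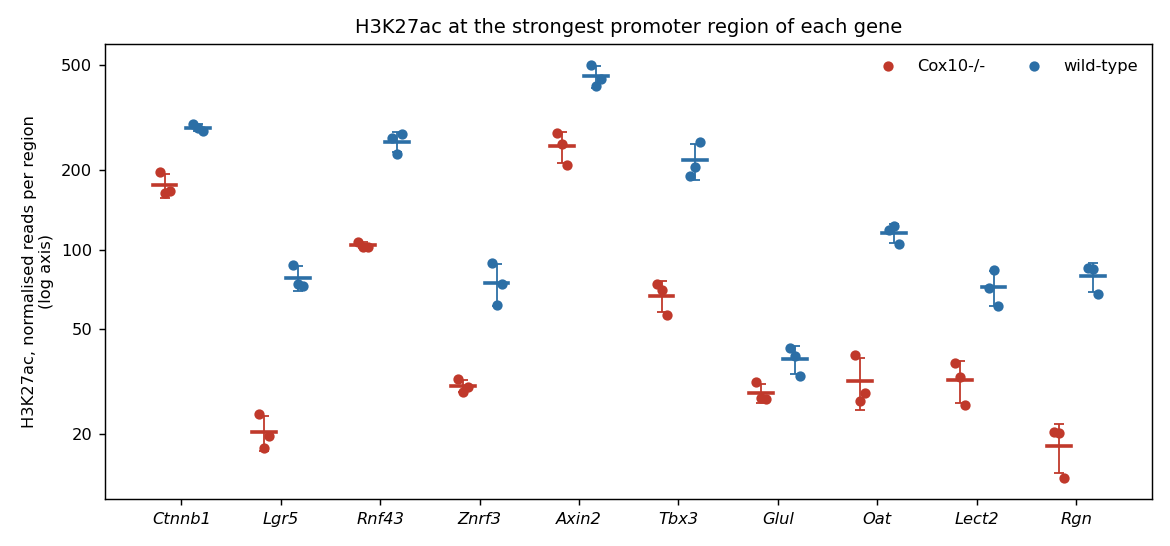
H3K27ac at the strongest promoter region of each gene in normalised reads (log axis), Cox10-/- left of wild-type, with points for the 3 libraries and bars for mean and SD. The genotypes are apart at every gene, by the least at Glul and by the most at Rgn.

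Ctnnb1 encodes beta-catenin, the protein that carries the WNT signal to the nucleus, and all its regions fell less than the median region. Its strongest region (chr9:120933785-120934804) had 197, 164 and 167 normalised reads in the Cox10-/- libraries, against 299, 289 and 281 in the wild-type libraries. Every Cox10-/- library was below every wild-type library there. The region was 1.65-fold lower (log2 -0.72, SE 0.10, limma adjusted p = 3.0e-11), against a median of -0.82 at the strongest promoters of all genes. Its recovered reads overlapped, with 232, 203 and 220 in the Cox10-/- libraries and 225, 211 and 220 in the wild-type libraries. On the deposited scale this region thus separated the genotypes through the size factors. Relative to the median region it was higher by 0.33 (limma adjusted p = 3.6e-04), and relative to the median promoter by 0.18 (limma adjusted p = 0.0454). The other 3 Ctnnb1 regions were 1.50-fold to 1.92-fold lower. The weak region at chr9:120933484-120933702 was the only 1 of the 42 where libraries of the genotypes overlapped, with 33.1, 41.2 and 15.2 normalised reads in the Cox10-/- libraries, against 81.1, 47.9 and 39.6 in the wild-type libraries. Its call was lost with DESeq2 on the recovered reads (adjusted p = 0.0799).

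Lgr5, the R-spondin receptor of the hepatocytes next to the central vein, lost most at its start. The region chr10:115586991-115587396, 384 bases into the gene, had 23.8, 17.8 and 19.7 normalised reads in the Cox10-/- libraries, against 87.8, 74.0 and 72.9 in the wild-type libraries. The genotypes were far apart there, 3.71-fold lower in Cox10-/- (log2 -1.89, SE 0.21, limma adjusted p = 9.2e-17) and -0.84 on the centred scale (limma adjusted p = 1.4e-04). Further into the gene, at 1 to 2 kb, the regions were 1.74-fold and 2.53-fold lower, and neither was called on the centred scale. The gap between these regions and the promoter was itself tested, as described further on.

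Rnf43 and Znrf3 encode related ubiquitin ligases of the cell surface that clear WNT receptors. Rnf43 held the most regions of the 10 genes, and all 9 were lower in Cox10-/-, by 2.33-fold to 6.12-fold. The region across its start (chr11:87662680-87663729), which covers the window shown, had 107, 102 and 102 normalised reads in the Cox10-/- libraries, against 266, 231 and 274 in the wild-type libraries. It was 2.45-fold lower (log2 -1.29, SE 0.11, limma adjusted p = 1.3e-23). Its centred value was -0.24 (limma adjusted p = 0.0241), and that call was lost without Cox10-/- replicate 1 or 2 or wild-type replicate 1 or 3 (adjusted p from 0.0604 to 0.122). It was also lost with DESeq2 (adjusted p = 0.0996). Centred on the median promoter, the value was -0.39 (limma adjusted p = 3.3e-04). Of the Rnf43 regions, a cluster of 4 in intron 1 of 5 lay 25.5 to 27.6 kb into the gene. The strongest of them (chr11:87689769-87690425) had 53.5, 46.8 and 46.2 normalised reads in the Cox10-/- libraries, against 192, 182 and 179 in the wild-type libraries, 3.72-fold lower (log2 -1.90, SE 0.14, limma adjusted p = 1.0e-30; -0.84 centred). The weakest (chr11:87688591-87688775) had 9.35, 8.88 and 2.27 normalised reads in the Cox10-/- libraries, against 47.9, 31.5 and 47.3 in the wild-type libraries. That was the deepest fall at Rnf43, 6.12-fold lower (SE 0.36 on the log2 scale), on only 11, 11 and 3 reads in the Cox10-/- libraries and 36, 23 and 37 in the wild-type libraries. A further 6 regions at the Rnf43 locus carry the names Supt4a and 1110028F11Rik. All 6 were lower, as 87.2% of all regions were, and on the centred scale 2 were lower and 4 not called.

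Znrf3 held 7 regions, of which 6 were lower and 1 was higher, against 87.2% and 4.46% of all regions. Its strongest promoter region (chr11:5445174-5445425) had 32.3, 29.1 and 30.3 normalised reads in the Cox10-/- libraries, against 89.1, 61.6 and 74.1 in the wild-type libraries, 2.38-fold lower (log2 -1.25, SE 0.19, limma adjusted p = 3.8e-10), close to the median region. Centred on the median promoter, its value was -0.35 (limma adjusted p = 0.0822). The exception lay in intron 1 of 8, 89.4 kb into the gene (chr11:5355165-5355447), with 60.3, 49.2 and 38.6 normalised reads in the Cox10-/- libraries, against 14.6, 8.22 and 17.9 in the wild-type libraries. Every Cox10-/- library exceeded every wild-type library, and the region was 3.55-fold higher (log2 1.83, SE 0.27, limma adjusted p = 2.1e-10). It rested on 71, 61 and 51 reads in the Cox10-/- libraries and 11, 6 and 14 in the wild-type libraries. Over all regions, 99.4% had a lower fold change than this one, while 8.13% had a lower mean level, so it was weak. Another Znrf3 region, 148 kb into the gene in intron 2 of 8 (chr11:5296364-5296853), had 67.1, 75.1 and 68.2 normalised reads in the Cox10-/- libraries, against 90.5, 107 and 109.9 in the wild-type libraries. This fall was shallow (1.45-fold lower, log2 -0.54, SE 0.14, limma adjusted p = 3.0e-04) and stood 0.52 (limma adjusted p = 5.4e-04) above the median region. The recovered reads there were 79, 93 and 90 in the Cox10-/- libraries and 68, 78 and 86 in the wild-type libraries. The direction of that fall thus comes from the size factors. Between these and the promoter, the region 30.7 kb into the gene (chr11:5413482-5414194) was 3.41-fold lower, with 41.2 ± 1.81 normalised reads in Cox10-/- and 144 ± 18.9 in wild-type (SD, n = 3 each).

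Axin2, a scaffold of the complex that degrades beta-catenin and a widely used readout of WNT activity, held a broad promoter region and a small one inside the gene. The promoter (chr11:108920433-108922236), which starts 35 bases beyond the CG-rich window shown, had 277, 253 and 209.9 normalised reads in the Cox10-/- libraries, against 503, 418 and 444 in the wild-type libraries. It was 1.85-fold lower (log2 -0.89, SE 0.09, limma adjusted p = 3.8e-18). Recovered reads overlapped, with 326, 313 and 277 in the Cox10-/- libraries and 378, 305 and 347 in the wild-type libraries. On the deposited scale the promoter thus separated the genotypes fully only through the size factors. Its centred value was 0.17 (limma adjusted p = 0.0321), and that call was lost without Cox10-/- replicate 1 or 2 or wild-type replicate 2 or 3 (adjusted p from 0.0702 to 0.199). It was also lost with a pseudocount of 4, with DESeq2 and with libraries centred on their totals (adjusted p from 0.0884 to 0.146). Centred on the median promoter, the value was 0.021 (limma adjusted p = 0.809). The small region (chr11:108936695-108936898) had 13.6, 9.68 and 11.4 normalised reads in the Cox10-/- libraries, against 38.6, 47.9 and 49.8 in the wild-type libraries. It fell further, to 3.71-fold lower (log2 -1.89, SE 0.28, limma adjusted p = 3.3e-10), and was lower on the centred scale as well (-0.84, limma adjusted p = 0.00581).

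Tbx3, a T-box transcription factor and beta-catenin target, fell evenly. All 4 regions began 0.913 to 3.39 kb downstream of the start and were 2.82-fold to 3.41-fold lower. The strongest (chr5:119671980-119672884) had 73.9, 70.2 and 56.8 normalised reads in the Cox10-/- libraries, against 190.2, 207 and 257 in the wild-type libraries. It was 3.21-fold lower (log2 -1.68, SE 0.13, limma adjusted p = 5.7e-29), and -0.63 (limma adjusted p = 1.9e-06) on the centred scale. All 4 were called lower on that scale, against 32.4% of all regions. Of these 4, the region at chr5:119671447-119671861 lost its centred call without wild-type replicate 3 (adjusted p = 0.138) and that at chr5:119673926-119674240 without wild-type replicate 1 (adjusted p = 0.0708). A region across the RefSeq start of Tbx3, which the table names for its antisense neighbour Tbx3os1 (chr5:119669936-119670552), had 75.6, 63.0 and 69.7 normalised reads in the Cox10-/- libraries, against 173, 148 and 179 in the wild-type libraries. It was 2.38-fold lower (log2 -1.25, SE 0.13, limma adjusted p = 1.1e-17) and not called on the centred scale (-0.20, limma adjusted p = 0.14).

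Glul encodes glutamine synthetase, the classic marker of the hepatocytes that ring the central vein. It had the smallest fall of the 10 genes. The only region named for it (chr1:153901738-153901974), 1809 bases into the RefSeq gene, was weak, with 31.4, 27.4 and 27.3 normalised reads in the Cox10-/- libraries, against 42.6, 39.7 and 33.2 in the wild-type libraries. It was 1.33-fold lower and not called (log2 -0.41, SE 0.23, limma adjusted p = 0.0814), although the call was made without wild-type replicate 3 (adjusted p = 0.0485). In recovered reads it had 37, 34 and 36 reads in the Cox10-/- libraries and 32, 29 and 26 in the wild-type libraries, so the direction on the deposited scale comes from the size factors. On the centred scale it was higher by 0.65 (limma adjusted p = 0.00727), or adjusted p = 0.0569 with DESeq2 on recovered reads.

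The start of Glul itself carries another name in the table. A broad region beginning 58 bases after the RefSeq start of Glul, 9 bases beyond the window shown (chr1:153899987-153901359), is named Teddm2, as is a small one 348 bases before the start (chr1:153899345-153899581). These were found by position, after the members had been listed, and are not counted among the 42. The broad region had 353, 332 and 288 normalised reads in the Cox10-/- libraries, against 427, 422 and 403 in the wild-type libraries, a higher mean level than 96.8% of all regions. All Cox10-/- libraries lay below all wild-type libraries, yet by only 1.29-fold (log2 -0.37, SE 0.09, limma adjusted p = 5.2e-05), and 86.2% of all regions fell further. Its recovered reads were 415, 411 and 380 in the Cox10-/- libraries and 321, 308 and 315 in the wild-type libraries. Its direction on the deposited scale thus comes from the size factors. Relative to the median region it was higher by 0.68 (limma adjusted p = 2.0e-15). The small upstream region had 30.6, 31.5 and 29.5 normalised reads in the Cox10-/- libraries, against 54.5, 53.4 and 56.2 in the wild-type libraries, 1.77-fold lower (log2 -0.82, SE 0.20, limma adjusted p = 8.4e-05; 0.23 centred, limma adjusted p = 0.285).

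**Figure D3:**
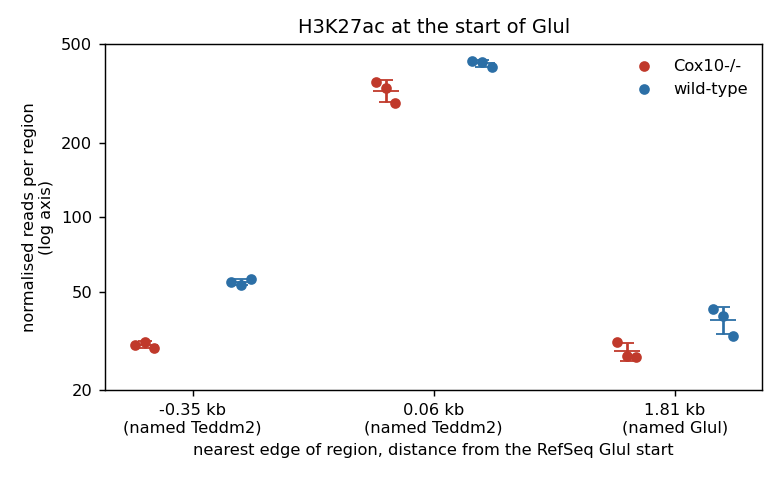
Normalised reads (log axis) at the 3 regions around the RefSeq start of Glul, by distance of the nearest edge from that start, Cox10-/- left of wild-type, with 3 libraries, mean and SD. The broad region just after the start keeps 287.9 to 352.7 normalised reads in Cox10-/- libraries, against 402.6 to 427.0 in wild-type libraries.

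Oat encodes ornithine aminotransferase, an enzyme confined with glutamine synthetase to pericentral hepatocytes. Its regions lay 84 and 562 bases into the gene and only the inner one was lower on the centred scale, though the difference between them was not tested. The stronger, inner one (chr7:132575277-132575836) had 39.9, 26.6 and 28.8 normalised reads in the Cox10-/- libraries, against 118, 123 and 105 in the wild-type libraries, 3.60-fold lower (log2 -1.85, SE 0.17, limma adjusted p = 6.4e-22) and -0.79 (limma adjusted p = 1.2e-05) centred. The one nearer the start (chr7:132576043-132576314) had 29.7, 29.1 and 45.5 normalised reads in the Cox10-/- libraries, against 77.2, 74.0 and 62.6 in the wild-type libraries. It was 2.06-fold lower (log2 -1.04, SE 0.19, limma adjusted p = 1.0e-07), level with the median region (centred 0.01, limma adjusted p = 0.954). Cox10-/- replicate 3 was the highest of its group there.

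Lect2, a protein secreted by hepatocytes and a beta-catenin target in mouse liver, had 3 promoter regions and 2 intergenic ones. All were lower, as were 87.2% of all regions. The strongest promoter region (chr13:56548204-56548472) had 37.4, 33.1 and 25.8 normalised reads in the Cox10-/- libraries, against 71.8, 83.5 and 61.3 in the wild-type libraries, 2.22-fold lower (log2 -1.15, SE 0.19, limma adjusted p = 7.4e-09). The 3 promoter regions, 2 of which flank the ATCAAAG match, were not called on the centred scale (limma adjusted p from 0.614 to 0.693). The stronger intergenic region lay 11.7 kb upstream (chr13:56560257-56560957) and had 49.3, 51.7 and 34.9 normalised reads in the Cox10-/- libraries, against 173, 133 and 175 in the wild-type libraries. It was 3.51-fold lower (log2 -1.81, SE 0.15, limma adjusted p = 3.5e-26; -0.76 centred, limma adjusted p = 1.5e-06). The other, 9.93 kb upstream, was 2.87-fold lower, with 26.4 ± 3.83 normalised reads in Cox10-/- and 76.9 ± 1.55 in wild-type (SD, n = 3 each). Its centred call (-0.47, limma adjusted p = 0.0202) was lost without Cox10-/- replicate 3 or wild-type replicate 1 or 2 (limma adjusted p from 0.0505 to 0.068). DESeq2 did not make that call either (adjusted p = 0.0848).

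Rgn encodes regucalcin, a calcium-binding gluconolactonase abundant in liver, and it lost the most. Over its 5 regions the summed level was 96.3 ± 6.74 normalised reads in Cox10-/- and 391 ± 11.1 in wild-type (SD, n = 3 each), 24.6% of the wild-type mean. That share was 31.1% for Tbx3, 59.5% for Ctnnb1 and 74.6% for Glul. Fold changes ran from 2.23-fold lower upstream to 9.84-fold lower inside the gene, a trend that was not tested. The region furthest upstream (chrX:20548120-20548582) had 54.4, 54.9 and 46.2 normalised reads in the Cox10-/- libraries, against 112, 107 and 132 in the wild-type libraries, 2.23-fold lower (log2 -1.15, SE 0.15, limma adjusted p = 9.7e-13) and not called on the centred scale. The strongest promoter region within 1 kb (chrX:20548956-20549325) had 20.4, 20.2 and 13.6 normalised reads in the Cox10-/- libraries, against 85.1, 84.9 and 67.7 in the wild-type libraries, 4.25-fold lower (log2 -2.09, SE 0.21, limma adjusted p = 1.8e-18).

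Beyond the start of Rgn the falls were deeper still. At chrX:20550433-20550666 and chrX:20551174-20551539 they were 5.53-fold and 5.61-fold. At chrX:20551585-20551973, 1819 bases into the gene, there were 7.65, 6.46 and 7.58 normalised reads in the Cox10-/- libraries, against 93.1, 69.8 and 78.0 in the wild-type libraries. The genotypes stood an order of magnitude apart, 9.84-fold lower (log2 -3.30, SE 0.27, limma adjusted p = 9.3e-26), and -2.25 (limma adjusted p = 6.9e-12) on the centred scale. Only 0.467% of all regions fell further. It rested on 9, 8 and 10 reads in the Cox10-/- libraries and 70, 51 and 61 in the wild-type libraries. A pseudocount of 1 understates such a change.

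**Figure D4:**
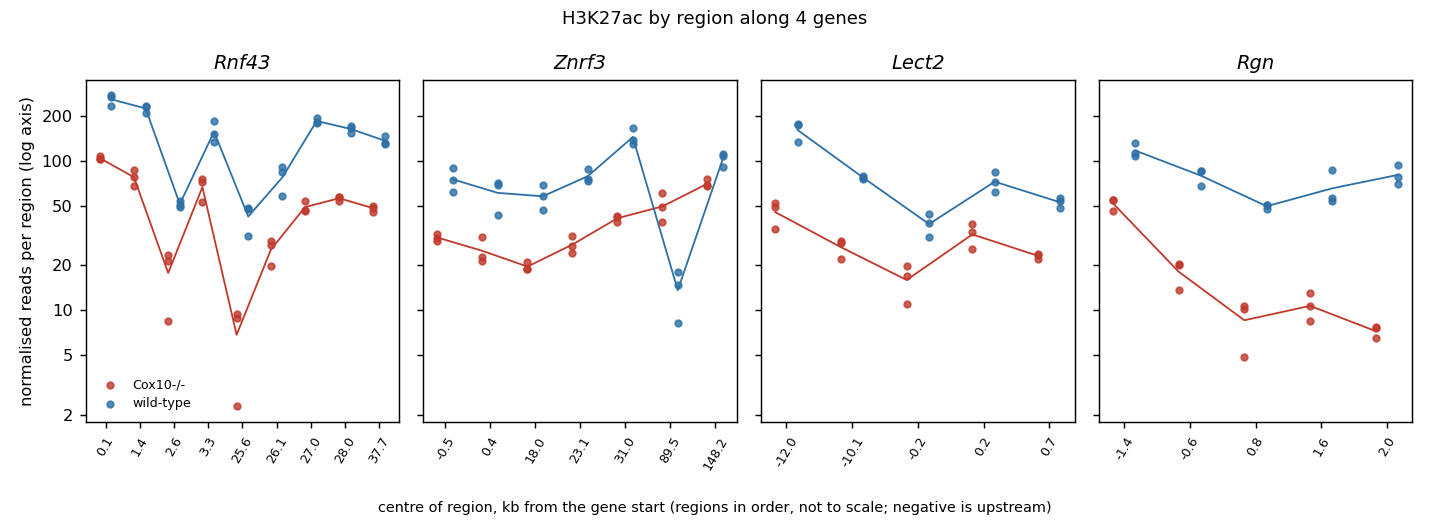
Normalised reads (log axis) in each library at the regions of Rnf43, Znrf3, Lect2 and Rgn, in order along each gene and labelamong them the distance of the region's centre from the gene start in kb, Cox10-/- left of wild-type, with lines through the means. The genotypes cross at 1 Znrf3 region, 89.5 kb into the gene, and the widest gap at Rgn is at its last region.

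Other regions, those not annotated within 1 kb of a start site, were tested against the strongest promoter of the same gene. The test used the difference between them within each library, which the scaling of libraries alters only through the pseudocount. Regions annotated 1 to 3 kb from a start count as other, and at Axin2, Lgr5, Tbx3, Ctnnb1 and Rgn all others were of that class. Of 3665 genes with both kinds of region, 38.0% were lower in Cox10-/- (the other regions fell further than the promoter) and 21.9% higher. Of the 8 members with both, 3 were lower, 2 higher and 3 not called. At Axin2 the difference, mean log2 level of other regions minus that of the strongest promoter, was -4.30 ± 0.24 in Cox10-/- and -3.30 ± 0.32 in wild-type (SD, n = 3 each), a change of -1.01 (SE 0.19, limma adjusted p = 0.00244). The promoter of Axin2 thus kept more than its inner region. That inner region was the only other one. It rested on 16, 12 and 15 reads in the Cox10-/- libraries and 29, 35 and 39 in the wild-type libraries. Rnf43 had a change of -0.47 (SE 0.13, limma adjusted p = 0.0159), which turned to 0.07 when the strongest other region stood for all of them.

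Lect2 had a change of -0.51 (SE 0.18, limma adjusted p = 0.039). That call was lost without any 1 of 5 of the 6 libraries, all but wild-type replicate 2, with adjusted p from 0.0541 to 0.127. Lgr5 went the other way, its promoter having lost more than the regions 1 to 2 kb inside: 0.35 ± 0.22 in Cox10-/- and -0.47 ± 0.15 in wild-type (SD, n = 3 each), a change of 0.82 (SE 0.16, limma adjusted p = 0.00235). Znrf3 changed by 0.56 (SE 0.15, limma adjusted p = 0.0127), but that call rests on the intron region that was higher: without it the change was -0.07 (SE 0.17, limma adjusted p = 0.737). The values for Tbx3 and Ctnnb1 were -0.04 and -0.03, neither called. That for Rgn, -0.23, was not called either and became 0.93 (limma adjusted p = 0.00207) with only its strongest other region, the upstream one.

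The rest of the pathway was described at the strongest promoter of each gene, by counts on the centred scale, against a background of 15.0% of genes lower and 49.5% higher and a median of 0.24. Of 14 WNT ligands and agonists only Wnt5b had a promoter region, with 142 ± 5.87 normalised reads in Cox10-/- and 199 ± 46.6 in wild-type (SD, n = 3). It was lower on the deposited scale (log2 -0.45, limma adjusted p = 1.1e-04) and higher on the centred one (0.60, limma adjusted p = 6.1e-07). Of the 14, 11 had no region of any kind under their names in the table used, among them Wnt2, Wnt4 and Rspo3. Of 17 receptors and co-receptors listed 11 had a promoter region, and 4 were lower and 4 higher (median -0.17). Fzd7, a Frizzled receptor, had 162 ± 18.0 normalised reads in Cox10-/- and 509 ± 30.4 in wild-type (log2 -1.65; -0.60 centred, limma adjusted p = 9.8e-11), and Ror1, a WNT-binding receptor kinase, -0.56 centred. On the other side, Fzd6 had 50.6 ± 5.42 normalised reads in Cox10-/- and 47.8 ± 8.86 in wild-type, 1.14 centred, and the co-receptor Lrp5 0.43.

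At their strongest promoters, downstream parts of the pathway mostly stood above the median region, as promoters in general did. Of 17 genes of the relay and destruction complex 12 had a promoter region, and 8 were higher on the centred scale and 4 not called (median 0.33), among them the casein kinases Csnk1e and Csnk1d, at 0.90 and 0.57. Of 14 TCF factors and partners 8 had one, and 6 were higher and 2 not called (median 0.34), among them the co-repressor Tle3 (0.41) and the co-activator Bcl9 (0.49). On the deposited scale these lists had medians of -0.72 and -0.71, with 11 of 12 and 8 of 8 lower, against -0.82 and 93.8% of all genes. Over all regions named for these genes the centred calls were mixed, with 13 of 36 relay regions lower and 14 higher (median 0.14) and 14 of 34 regions of TCF factors and partners lower and 11 higher (median -0.10), against 32.4% and 33.6% of all regions. Of 20 inhibitors and other targets 3 had a promoter region. Ccnd1, encoding cyclin D1, was lower (-0.76 centred), and Myc and Kremen1, a co-receptor for DKK inhibitors, were higher (1.41 and 0.41). Myc was also higher on the deposited scale (692 ± 58.7 normalised reads in Cox10-/- and 539 ± 25.5 in wild-type, log2 0.36, limma adjusted p = 7.7e-06), while Kremen1 was lower there (log2 -0.64).

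The 10 genes were set beside other genes of the pericentral zone and beside genes of the opposite, periportal zone. Of 31 other pericentral genes 17 had a promoter region, and 8 were lower on the centred scale and 3 higher (median -0.28, against -0.22 for the 10 genes). Cyp2e1, a pericentral cytochrome P450, had 47.7 ± 8.50 normalised reads in Cox10-/- and 414 ± 9.09 in wild-type (SD, n = 3), or -2.06 centred, and Nr1i3, the xenobiotic receptor CAR, -1.26. Blvrb, a biliverdin reductase, and Por, the reductase that serves cytochromes P450, were higher at 0.69 and 0.27. Of 25 periportal genes 21 had one, and 17 were lower and 2 higher (median -0.66). Pck1, of gluconeogenesis, had 105 ± 15.1 normalised reads in Cox10-/- and 739 ± 32.3 in wild-type, or -1.76 centred, and Asl, of the urea cycle, -1.21. Apoc2 and Hal were higher, at 0.32 and 0.50. On the deposited scale all 17 pericentral and all 21 periportal genes were lower, with medians of -1.33 and -1.71, against 93.8% lower and a median of -0.82 over all genes. The lists were not tested against each other.

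**Figure D5:**
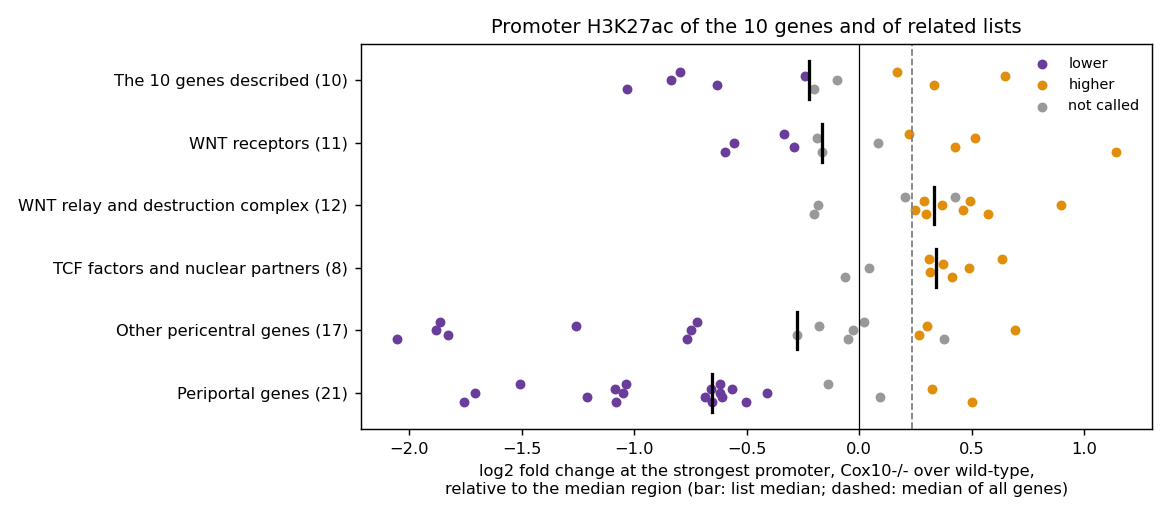
Log2 fold change at the strongest promoter, Cox10-/- over wild-type, relative to the median region, for the 10 genes and 5 related lists, coloured by limma call, with list medians as bars and the median of all genes dashed. The 10 genes spread from -1.03 (Rgn) to 0.65 (Glul), on both sides of the dashed line.

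Markers of other liver cell types were looked up because WNT ligands of the lobule come from endothelial cells. Of 12 endothelial markers 4 had any region, in 13 regions that together held 426.5 to 500.5 normalised reads in Cox10-/- libraries and 791.6 to 890.0 in wild-type libraries, and 8 (Cdh5, Kdr, Stab2, Clec4g, Tek, Tie1, Eng and Ehd3) had none. Of 10 macrophage markers 3 had regions, 28 in all, with 2129 to 2451 normalised reads in Cox10-/- libraries and 3262 to 3442 in wild-type libraries. Of their promoters, that of Cd14 had 314 ± 28.3 normalised reads in Cox10-/- and 140.4 ± 1.26 in wild-type and that of Cd68 38.4 ± 4.41 normalised reads in Cox10-/- and 41.7 ± 10.5 in wild-type (SD, n = 3 each). The third, Cx3cr1, had 86.8 ± 11.8 normalised reads in Cox10-/- and 205 ± 16.7 in wild-type (SD, n = 3 each), and was lower (log2 -1.23, limma adjusted p = 1.9e-19; -0.18 centred, not called). Of 7 cholangiocyte markers 3 had regions, 13 in all, with 660.6 to 759.7 normalised reads in Cox10-/- libraries and 1419 to 1437 in wild-type libraries. Stellate and blood cell markers had 1 and 2 regions, with 31.8 to 49.2 and 31.1 to 36.3 normalised reads in Cox10-/- libraries and 66.5 to 105.1 and 121.4 to 168.9 in wild-type libraries. The 8 hepatocyte markers, by comparison, held 87 regions with 5247 to 5986 normalised reads in Cox10-/- libraries and 17637 to 18382 in wild-type libraries. The part of cell composition in the values of the 10 genes was not tested.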

How the data were processed

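Each genotype had 3 H3K27ac libraries, and 6 input libraries were not used. The submitters' processing notes name the build mm10 and the tools BWA (0.7.5), MACS and deepTools (3.5.0), with no roles. Per the labels' protocols, chromatin was spiked with foreign chromatin, and no source used here says whether the size factors rest on it. The authors deposited normalised read counts per region (a signal). Of 36446 regions listed, 59 repeats were dropped. The deposited signal equals whole reads over a size factor that is constant within a library, and 100% of values were whole within 0.01 reads when multiplied back. The deposited table also gives the authors' log2 fold changes, a test score and p-values. Whether its coordinates count from 0 or 1 is not stated, and they are printed as given.

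Regions were tested on log2(value + 1) with limma 3.58.1 in R 4.3.3, with a variance trend and no filter, at Benjamini-Hochberg adjusted p under 0.05 over all 36387 regions. The pseudocount understates changes of low regions. On the recovered reads with the authors' size factors, edgeR 4.0.16 called 31769 regions lower and 1608 higher, and DESeq2 1.42.0 called 30860 and 1299. Libraries of 1 genotype differed beyond counting noise (chi-square over its degrees of freedom from 1.06 to 1.19) and were kept apart.

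The 10 genes and all lists were chosen with earlier results of these data known. Named were, of each of the 10, the strongest promoter region, the strongest other region and the largest changes among other regions at or above the median level, and of each list up to 2 genes per direction with the smallest adjusted p on the centred scale. Other regions named, also those named for other genes, were chosen after their values were seen. Alternatives were other pseudocounts, a filter, a threshold of 0.01, a block, each library left out, other scalings and centres, and the count tests.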

Additional observations from a re-analysis of the deposited data

How the results depend on the processing

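Regions are numbered along the chromosome. On the deposited scale 40 regions were lower and 1 higher, and 40 to 41 were lower with each library left out. The low-value filter, which removes regions, gave 23 lower and 0 higher (limma). Scalings that remove the common shift gave 23 lower and 6 higher (edgeR TMM) or 18 lower and 4 higher (DESeq2 median-of-ratios). At strongest promoters they gave 5 lower and 3 higher, or 4 lower and 2 higher, against 9 lower. No share of all regions or of all promoters is given for these scalings. On the centred scale 6 regions were higher, against 3 under the filter and 3 with DESeq2. At strongest promoters 3 were higher, against 1 with DESeq2 and 1 with all promoter regions averaged. For promoters against other regions (3 lower, 2 higher), the filter left 0 higher (limma) and a threshold of 0.01 left 1 lower and 1 higher. Without Znrf3 region 2, a choice made after seeing the data, 1 was higher. With regions at the gene loci added whatever their name, chosen after seeing the data, 49 were lower. Same-numbered libraries did not vary together (r from -0.00092 to 0.0074), and with the replicate block 40 regions were lower and 1 higher; the block ended the call of Lect2 for promoter against other regions (adjusted p = 0.0605) and brought in that of Rnf43 region 3 on the centred scale (adjusted p = 0.045).

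Log2 fold changes that turned from negative to positive under edgeR TMM were Axin2 region 1 0.16, Ctnnb1 region 1 0.12, Ctnnb1 region 2 0.33, Ctnnb1 region 3 0.45, Ctnnb1 region 4 0.0961, Glul region 1 0.63, Lgr5 region 2 0.21, Oat region 2 0.0351, Znrf3 region 1 0.51, the Teddm2-named region at 153899345 0.21, the Teddm2-named region at 153899987 0.69. Under DESeq2 median-of-ratios they were Axin2 region 1 0.17, Ctnnb1 region 1 0.13, Ctnnb1 region 2 0.33, Ctnnb1 region 3 0.46, Ctnnb1 region 4 0.0993, Glul region 1 0.63, Lgr5 region 2 0.22, Oat region 2 0.0397, Znrf3 region 1 0.51, the Teddm2-named region at 153899345 0.22, the Teddm2-named region at 153899987 0.69. Those scalings remove the common shift by construction. Centred values that turned, none of them called where it turned, were as follows. With the setting centre on the median promoter, Ctnnb1 region 1 -0.0311, Ctnnb1 region 4 -0.0209, Oat region 2 -0.13. With the setting centre on the library total, Oat region 2 -0.0249. With each library left out in turn, they ran for Ctnnb1 region 1 from -0.15 to 0.47, Lect2 region 2 from -0.21 to 0.0182, Lect2 region 3 from -0.38 to 0.10, Oat region 2 from -0.24 to 0.15, Rnf43 region 4 from -0.32 to 0.0264. Differences between other regions and promoters turned as follows. With the setting pseudocount 4, Tbx3 0.0592, Ctnnb1 0.0185. With the setting strongest other region, Tbx3 0.0127, Rnf43 0.0719, Ctnnb1 0.14, Rgn 0.93. With the setting Znrf3 region 2 left out, Znrf3 -0.0707. With each library left out in turn, they ran for Tbx3 from -0.27 to 0.11, Ctnnb1 from -0.13 to 0.0163. The cause was not tested. Low read numbers limit the weakest regions.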
